A study of Mus musculus with 6 samples.

Results

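The genes described here encode core proteins of 10 proteoglycans of the cell surface and extracellular matrix: the small leucine-rich proteoglycans decorin (*Dcn*), biglycan (*Bgn*) and lumican (*Lum*), the large matrix proteoglycan versican (*Vcan*), the syndecans *Sdc1*, *Sdc2* and *Sdc4*, and the glypicans *Gpc1*, *Gpc3* and *Gpc6*. They were chosen by name, and each was read by the 1 probe set that carried its symbol, so that 10 of the 20405 genes in the table are described. RNA came from early passage M0505 cells, a line of FVB/N mouse ovarian surface epithelium (OSE), on 3 arrays, and from STOSE cells, the spontaneously transformed line that arose from M0505 cells in long-term culture, also on 3 arrays. Both lines were grown in the same medium, α-Minimal Essential Medium with fetal calf serum, epidermal growth factor, an ITSS supplement, gentamicin, streptomycin and penicillin. The labels give no engineered allele for either line, each condition is a single cell line, and the time in culture and the transformation cannot be told apart. The labels call the arrays biological replicates and name no separate isolations, so that the p-values measure the spread between these arrays.

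Proteoglycans are proteins that carry long sulfated sugar chains, and the chains bind growth factors, chemokines and matrix proteins. Decorin, biglycan and lumican are small secreted proteins built of leucine-rich repeats that bind collagen fibrils, and decorin and biglycan carry chondroitin or dermatan sulfate. Versican is a secreted chondroitin sulfate proteoglycan that binds hyaluronan and loosens the matrix around moving and dividing cells. Syndecans span the membrane and glypicans are held on it by a lipid anchor, and both carry mainly heparan sulfate, through which they present ligands such as fibroblast growth factors, Wnts and hedgehog proteins to their receptors. The surface epithelium of the ovary is a layer related to the mesothelium, and its cells have both epithelial and mesenchymal features.

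Values are log2 signals after robust multi-array average (RMA) normalization, and a difference of 1 is a 2-fold change. The word called marks genes that had both a limma adjusted p under 0.05 and a linear fold change of 2 or more. The median log2 value over all genes lay between 6.46 and 6.49 on the M0505 arrays and between 6.25 and 6.29 on the STOSE arrays, while the median log2 fold change of all genes was 0.08. Background was measured on olfactory receptor genes, which these cells should not express, and the 95th percentile of their probe sets was 4.74. Of 10 OSE markers, all were above this level in both lines and 3 were called lower in STOSE cells, against 7.59% of all genes. *Krt19* fell from 11.17 to 5.61 and *Krt8* from 11.37 to 6.82. *Krt18* (11.34 and 10.50), *Wt1* (11.39 and 10.76) and *Upk3b* (12.25 and 11.91) were lower by less than 2-fold and still high. By the adjusted p alone, 9 of the 10 were lower, against 24.8% of all genes. The median log2 fold change of the OSE markers was −0.62. None of 9 leukocyte markers was called, and 7 lay under background in both lines, among them *Ptprc* (3.79 in M0505 cells and 3.81 in STOSE cells), while the highest, *Cd3e*, was at 5.09 and 5.31.

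A rise and a fall stood out among the core protein genes. *Gpc6* rose from near background in M0505 cells to a high signal in STOSE cells, *Vcan* fell from a high signal to background, and the other 8 genes differed by less than 2-fold. *Gpc6* was the only member called higher, which is 1 of 10, where 4.90% of all genes were called higher. *Vcan* was the only member called lower, 1 of 10 against a background of 7.59%, and in either direction 2 of 10 were called, against 12.5%. Centring each array on its median left 2643 genes called, 1177 of them lower, in place of 2548 with 1548 lower, and the same 2 members. By the adjusted p alone, 5 members were lower and 1 was higher, against 24.8% and 31.6% of all genes, or 6 of 10 against 56.5%. Centring, which raised every log2 fold change by 0.20, turned these into 4 lower and 5 higher members. Of the higher ones, *Lum* and *Gpc3* were at background on every array, and the share of all genes after centring is not given here. Both lines were at or below background for 2 of the 10 members, against 27.7% of all genes. The values of the lines did not overlap for 7 of the 10 members, against 64.6% of all genes. The median log2 fold change of the members was −0.08, beside 0.08 for all genes. In bulk RNA, fewer expressing cells and less RNA per cell cannot be told apart.

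**Figure D1:**
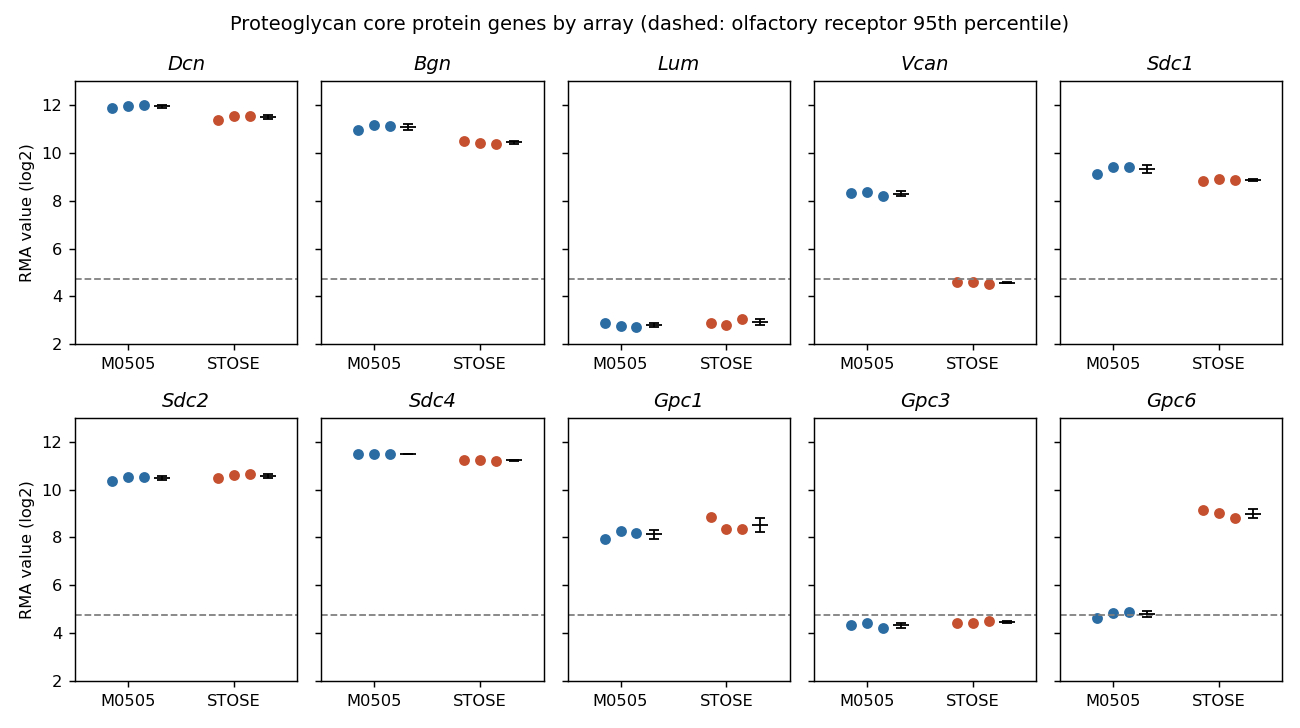
Log2 RMA value (vertical axis) of each of the 10 core protein genes on the 3 M0505 arrays (blue) and the 3 STOSE arrays (orange), with the mean and SD of each line in black and the olfactory receptor 95th percentile of 4.74 as a dashed line. *Vcan* drops to the dashed line and *Gpc6* leaves it, *Lum* and *Gpc3* lie under it in both lines, and the remaining genes stay well above it. Heights of different genes are not comparable, since each comes from its own probes.

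*Vcan*, on chromosome 13, had log2 values of 8.31, 8.37 and 8.18 on the M0505 arrays and 4.61, 4.59 and 4.54 on the STOSE arrays. All STOSE values lay below the olfactory receptor percentile of their own array, and no array of one line came near the other line. The measured means were 8.28 and 4.58 (fitted difference −3.71, standard error 0.07, limma adjusted p = 5.20e-09). Since the STOSE signal was at background, the fall is given only as a bound of at least 11.2-fold, taken against the percentile on each array. Leaving out each array in turn kept the fitted difference between −3.76 and −3.66.

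The RefSeq table of start site windows (GRCm38.p6) holds 5 of the 10 members, *Vcan*, *Bgn*, *Sdc1*, *Sdc4* and *Gpc3*. A short stretch of the *Vcan* window is shown because *Vcan* is the member that fell. It lies at chr13:89742714-89742743 on the minus strand, from base 231 to base 202 before the start in that table but inside the span that RefSeq gives for the whole gene, which is why only a short stretch is printed. The capitals mark a GC box, the letters GGGCGG, which can bind factors of the Sp family.
Vcan: agtagcagcccaGGGCGGggaagagggggt
The 250 bases before the *Vcan* start held 2 GC boxes, counted on both strands, and no TATAA. Of 32851 such windows in the table, 32.7% held at least 1 GC box and 16.0% held TATAA on the printed strand. A match of letters is a description and not a measured site.

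The other genes of the versican group were not called. They are the related core proteins *Acan*, *Bcan* and *Ncan* and the link proteins *Hapln1* to *Hapln4*, which tie these core proteins to hyaluronan. Of these 7 genes, 0 were called, and 4 were higher by the adjusted p alone, against 31.6% of all genes. In both lines, 3 of the 7 lay under background, against 27.7% of all genes. The log2 fold changes of the 7 ran from 0.16 to 0.47. *Hapln1*, which lies next to *Vcan* on chromosome 13, had a mean of 2.96 in M0505 cells and 3.17 in STOSE cells, under background in both (adjusted p = 0.0501). *Xrcc4*, the DNA end-joining gene on the other side of *Vcan*, had means of 7.83 and 7.47, a log2 difference of −0.35 and so under 2-fold (adjusted p = 0.0119).

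Of the 8 genes that make, bind or break down hyaluronan, the sugar that versican binds, 2 were called higher and 2 lower. The matching shares of all genes were 4.90% and 7.59%. The receptor gene *Cd44* of another list was called higher too. *Has2*, which encodes a hyaluronan synthase, had log2 values of 3.91, 4.21 and 3.80 in M0505 cells, all at background, and 8.84, 8.83 and 8.54 in STOSE cells. The fitted difference was 4.77 (standard error 0.12, adjusted p = 2.29e-08), and the rise is given as at least 16.7-fold over the olfactory receptor percentile. *Has1* and *Has3*, the other synthases, were not called and are named after their values were seen, with log2 fold changes of 0.02 and 0.19. Of 4 genes that break hyaluronan down, 2 were called lower, with *Hyal1* at a log2 fold change of −1.13 (standard error 0.06) and *Tmem2*, a cell surface hyaluronidase, at −1.22 (standard error 0.09). The other two, *Hyal2* (−0.22, adjusted p = 0.0758) and *Hyal3* (−0.69), were not called and are named after their values were seen. The hyaluronan receptor genes *Cd44* (1.32, standard error 0.09) and *Hmmr* (1.11, standard error 0.09) were called higher. *Hmmr* also belongs to the mitotic spindle, and *Hyal1* was under 2-fold after either rescaling of the arrays (−0.96 after a further quantile normalization and −0.93 after centring of each array on its median).

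Of 7 genes for ADAMTS proteases, a family whose members cut versican and aggrecan, 3 rose and 4 were not called. Over all genes, 4.90% were called higher and 7.59% lower. *Adamts1* had log2 values of 6.76, 6.94 and 7.004 in M0505 cells and 10.53, 10.78 and 10.82 in STOSE cells, so that the log2 fold change was 3.81 (standard error 0.10). *Adamts9* (log2 fold change 2.01, standard error 0.06) and *Adamts5* (2.13, standard error 0.12) rose as well. Of the 15 proteases and lipases that act on core proteins or on the lipid anchor, 3 were called higher and 2 lower. The 2 genes called lower were *Notum* and *Gpld1*. *Notum*, a secreted enzyme first described as one that releases glypicans and now known to remove a lipid from Wnts, had a log2 fold change of −1.92 (standard error 0.06), but −0.98 when its 2 probe sets were averaged. *Gpld1*, a phospholipase that cuts the glycosylphosphatidylinositol anchor, had a log2 fold change of −1.46 (standard error 0.11).

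**Figure D2:**
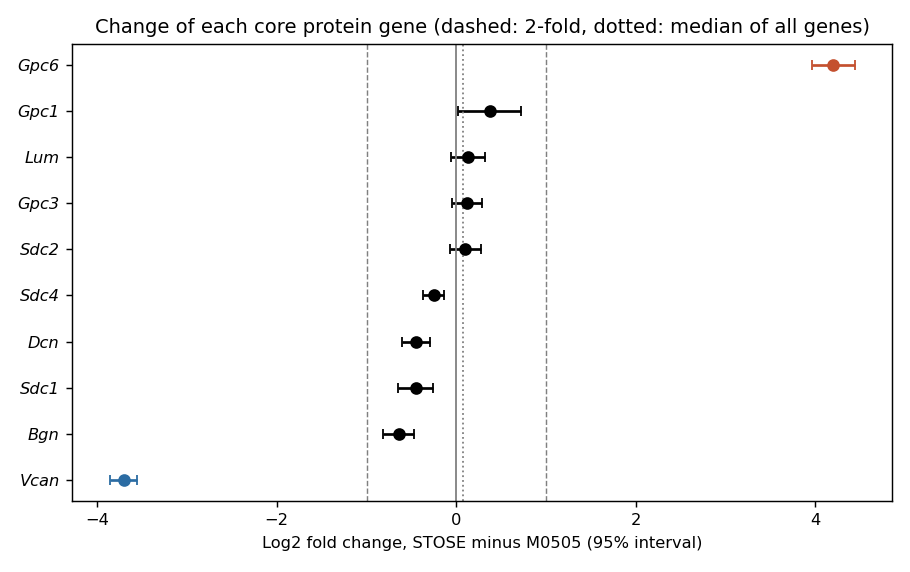
Log2 fold change of STOSE over M0505 cells (horizontal axis) for each core protein gene with its 95% interval from limma, unadjusted. *Gpc6* at 4.20 and *Vcan* at −3.71 lie far outside the dashed 2-fold lines, and the other 8 genes lie between −0.64 and 0.37, on both sides of the dotted median of all genes at 0.08.

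*Gpc6*, on chromosome 14, had log2 values of 4.63, 4.85 and 4.87 on the M0505 arrays and 9.16, 9.004 and 8.80 on the STOSE arrays. The M0505 values lay just above the olfactory receptor percentile of their own arrays, which ran from 4.63 to 4.70, and each STOSE value was far above any M0505 value. The log2 fold change was 4.20 (standard error 0.11, limma adjusted p = 2.08e-08), a linear fold change of 18.4. With each array left out in turn the log2 fold change stayed between 4.11 and 4.29. *Gpc6* encodes a glypican of mesenchymal tissues that acts on hedgehog signaling in the growing skeleton.

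The change of *Gpc6* was not shared by the gene beside it. *Gpc5*, its glypican neighbour on chromosome 14, had a mean of 4.06 in M0505 cells and 4.33 in STOSE cells, below background in both. The log2 fold change of *Gpc5* was 0.27 (standard error 0.07, adjusted p = 0.0119). *Dct*, a melanin synthesis gene on the other side, also lay under background in both lines, at 4.02 and 4.08 (adjusted p = 0.647).

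*Gpc3*, on chromosome X, encodes a glypican that restrains growth by binding hedgehog and is lost in an overgrowth syndrome. Its log2 values were 4.35, 4.43 and 4.20 in M0505 cells and 4.43, 4.41 and 4.49 in STOSE cells, all under background, and the lines overlapped. The log2 difference was 0.12, with a 95% interval of −0.05 to 0.29 (adjusted p = 0.189). *Gpc4*, the glypican gene next to *Gpc3*, behaved otherwise: it had log2 values of 10.05, 10.25 and 10.14 in M0505 cells and 7.78, 8.12 and 8.10 in STOSE cells. This fall of *Gpc4* was −2.15 as a log2 fold change (standard error 0.10) and −4.44 as a linear one, with an adjusted p of 6.80e-07. *Ccdc160*, the coiled-coil gene on the other side of *Gpc3*, also fell, from a mean of 8.59 to 5.85 (log2 fold change −2.74, standard error 0.07).

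*Gpc1*, on chromosome 1, encodes the most widely expressed glypican and binds fibroblast growth factors. It had log2 values of 7.92, 8.28 and 8.19 in M0505 cells and 8.85, 8.33 and 8.34 in STOSE cells. The lines did not overlap, but only narrowly, and STOSE replicate 1 stood above the others. The log2 difference was 0.37, with an unadjusted 95% interval of 0.02 to 0.73 (standard error 0.15, adjusted p = 0.0672), and it was 0.20 without STOSE replicate 1. The adjusted p was 0.0372 after a further quantile normalization and 0.0074 after centring each array on its median, so that its side of the threshold of the adjusted p rests on the scaling. *Gpc2*, the remaining glypican, was not called (log2 fold change −0.36, adjusted p = 0.00498) and is named after its value was seen. Of the 6 glypican genes, 1 was called higher and 1 lower, against 4.90% and 7.59% of all genes.

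**Figure D3:**
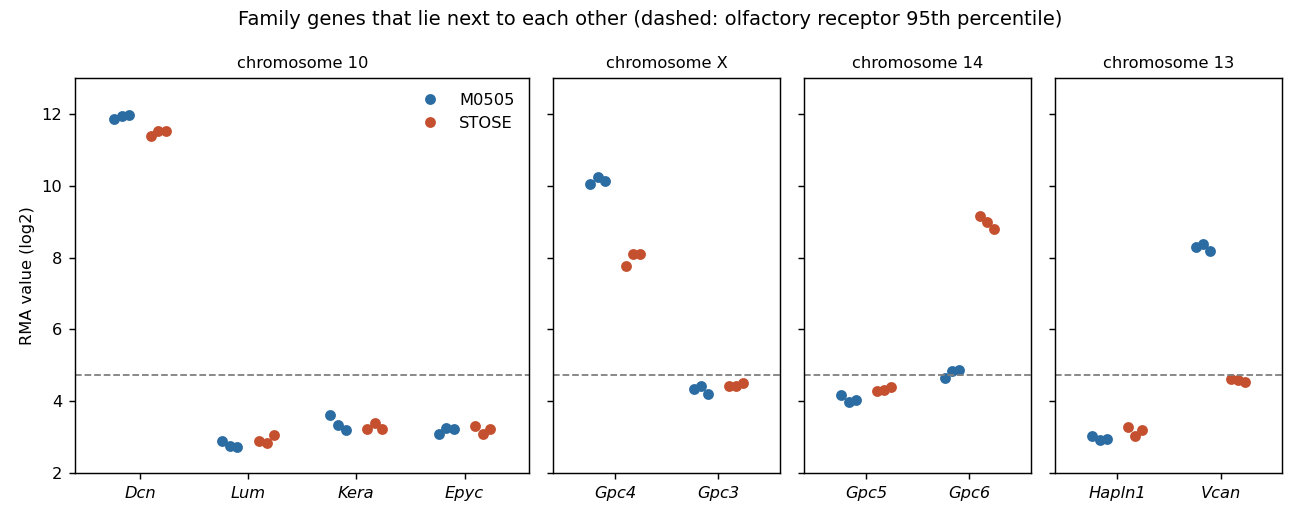
Log2 RMA values (vertical axis) of family genes that lie next to each other in the RefSeq order of genes on the array, with M0505 arrays in blue, STOSE arrays in orange and the olfactory receptor 95th percentile of 4.74 dashed. On chromosome 10 only *Dcn* is above the dashed line, and on chromosomes X and 14 one glypican of each pair changes (*Gpc4* falls, *Gpc6* rises) while the other stays under the line, and on chromosome 13 *Vcan* drops to the line while *Hapln1* lies under it.

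The 3 syndecan genes kept signals far above background in both lines and none was called. *Sdc4*, on chromosome 2, encodes the syndecan of focal adhesions. It had log2 values of 11.48, 11.47 and 11.47 in M0505 cells and 11.22, 11.24 and 11.21 in STOSE cells. The arrays of each line agree closely and the lines did not overlap, so that a log2 difference of only −0.25 passed the adjusted p (standard error 0.05, adjusted p = 0.00345). This is a linear fold change of −1.19, and after centring of each array on its median it was −0.05 (adjusted p = 0.37).

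*Sdc1*, on chromosome 12, encodes the syndecan typical of epithelia. Its log2 values were 9.13, 9.39 and 9.43 in M0505 cells and 8.82, 8.90 and 8.87 in STOSE cells, again without overlap, with M0505 replicate 1 the lowest of its line. The log2 difference was −0.45 (standard error 0.09, adjusted p = 0.00212), a linear fold change of −1.37, and leaving out arrays one at a time gave −0.55 to −0.40. Centring of each array brought it to −0.25 (adjusted p = 0.0288). *Sdc2*, on chromosome 15, encodes the syndecan typical of mesenchymal cells. It had log2 values of 10.36, 10.52 and 10.53 in M0505 cells and 10.46, 10.62 and 10.63 in STOSE cells. The lines overlapped, and the log2 difference of 0.10 had a 95% interval of −0.07 to 0.27 (adjusted p = 0.279). After centring of each array it was 0.30 (adjusted p = 0.00827). Of the genes directly next to these syndecans, 1 was called, *Pgcp* beside *Sdc2*, where 12.5% of all genes were called. *Pgcp*, a plasma carboxypeptidase gene, went from a mean of 10.62 to 9.27. *Pum2* and *Laptm4a* beside *Sdc1*, *Sema5a* beside *Sdc2*, and *Rbpjl* and *Sys1* beside *Sdc4* were not called.

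The bases before the start sites of *Sdc1* and *Sdc4* are shown because both genes were slightly lower in STOSE cells before centring and both hold a TATAA. Those of *Bgn* are shown because it was lower too and holds none. Each line gives the 100 bases before the annotated start in GRCm38.p6, at chr12:8771296-8771395 on the plus strand for *Sdc1*, chr2:164443189-164443288 on the minus strand for *Sdc4* and chrX:73483501-73483600 on the plus strand for *Bgn*. Capitals mark the letters TATAA, found in the core of TATA boxes, on the printed strand, and the GC box on either strand, as GGGCGG or CCGCCC.
Sdc1: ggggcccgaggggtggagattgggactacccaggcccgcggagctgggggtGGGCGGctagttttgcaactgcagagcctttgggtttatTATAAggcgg
Sdc4: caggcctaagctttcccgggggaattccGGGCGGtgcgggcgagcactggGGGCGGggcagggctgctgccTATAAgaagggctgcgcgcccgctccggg
Bgn: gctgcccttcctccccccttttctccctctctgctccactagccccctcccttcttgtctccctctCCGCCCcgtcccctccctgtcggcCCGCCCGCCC
In the 250 bases before the start, *Sdc4* held 4 GC boxes, and *Sdc1* and *Bgn* held 3 each. The TATAA began 29 bases before the start of *Sdc4* and 10 bases before that of *Sdc1*. Neither match is a measured TATA box, and a link between these letters and the changes of the genes was not tested.

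Genes of one family were also compared within each array, where a shift of the whole array, such as centring on its median, cancels, while a quantile normalization does not. The log2 value of *Sdc1* minus that of *Sdc2* ran from −1.23 to −1.10 in M0505 cells and from −1.76 to −1.64 in STOSE cells, a shift of −0.55 with no overlap. For *Sdc2* minus *Sdc4* the shift was 0.35, from a range of −1.12 to −0.95 to one of −0.76 to −0.58, and for *Sdc1* minus *Sdc4* it was −0.20. The lines overlapped for the last pair, since M0505 replicate 1 lay at −2.35, inside the STOSE range of −2.40 to −2.34. *Gpc1* minus *Gpc6* went from a mean of 3.34 to −0.48, and *Gpc3* minus *Gpc6* from −0.46 to −4.54, while *Gpc1* minus *Gpc3* shifted by 0.25 with overlap. This last shift was 0.40 without overlap after a further quantile normalization (exact permutation p = 0.1) and ran from 0.07 to 0.36 with each array left out. *Lum* and *Gpc3* were at background on all 6 arrays, so that a difference against either is one from the floor, and 3 of the 6 pairs without overlap hold one of them. In an exact permutation test, two-sided, over the 9 pairs of 1 family, the p was 0.1 (0.15 adjusted over the pairs) for the pairs without overlap, the smallest that 3 against 3 arrays can give, so that no pair could pass a threshold of 0.05.

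**Figure D4:**
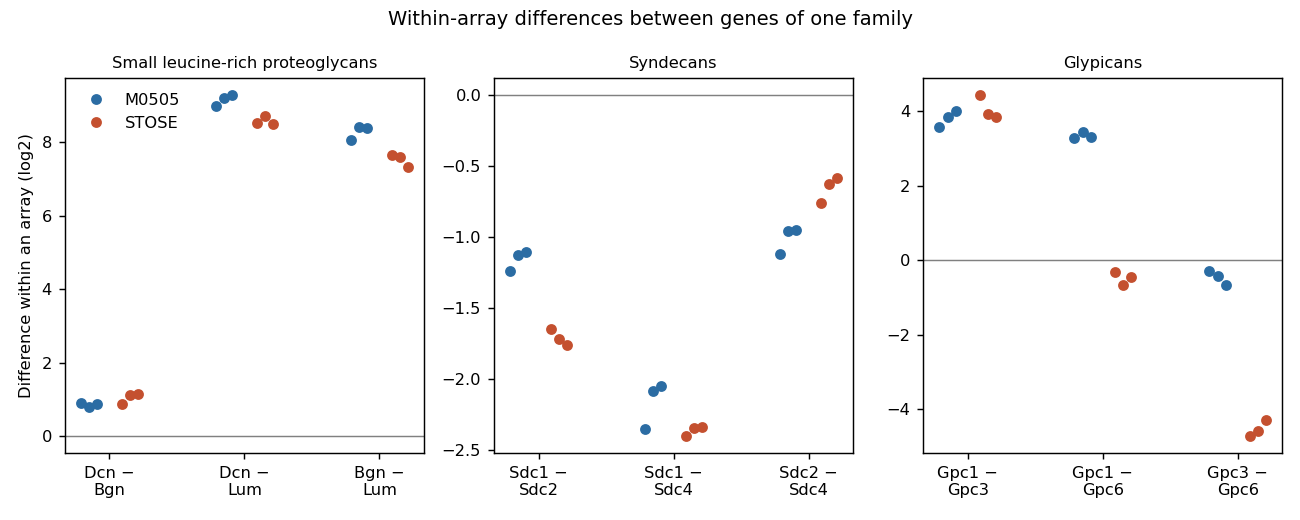
Difference in log2 value between both genes of a pair within each array (vertical axis), for M0505 arrays in blue and STOSE arrays in orange, in panels for small leucine-rich proteoglycans, syndecans and glypicans with separate scales. The lines separate for 6 of the 9 pairs, most widely for both pairs with *Gpc6*, though *Lum* and *Gpc3* are at background throughout, and overlap for *Dcn* minus *Bgn*, *Sdc1* minus *Sdc4* and *Gpc1* minus *Gpc3*.

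Of the small leucine-rich proteoglycans, *Dcn* and *Bgn* had strong signals in both lines and were modestly lower in STOSE cells. *Dcn*, on chromosome 10, encodes a collagen-binding proteoglycan that also binds transforming growth factor β. Its log2 values were 11.87, 11.95 and 11.99 in M0505 cells and 11.38, 11.53 and 11.54 in STOSE cells. The lines did not overlap, and the log2 difference was −0.45 (standard error 0.07, adjusted p = 5.60e-04), a linear fold change of −1.37. *Bgn*, on chromosome X, encodes the closest relative of decorin. It had log2 values of 10.95, 11.17 and 11.12 in M0505 cells and 10.51, 10.42 and 10.38 in STOSE cells, a difference of −0.64 (standard error 0.07, adjusted p = 1.23e-04) or −1.56-fold. After centring of each array, *Dcn* was at −0.25 (adjusted p = 0.013) and *Bgn* at −0.44 (adjusted p = 8.20e-04), and both had an adjusted p under 0.05 with any array left out. *Dcn* minus *Bgn* within an array shifted by 0.19 and overlapped between the lines (exact permutation p = 0.3), and the test did not separate their differences. Beside *Bgn*, the centrosome gene *Haus7* was called lower, from a mean of 9.53 to 7.84, and the calcium pump gene *Atp2b3* was not (5.06 and 4.95).

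*Lum*, which encodes a keratan sulfate proteoglycan of cornea and other collagen-rich tissues, is the gene next to *Dcn* but lay at background. Its log2 values were 2.90, 2.75 and 2.73 in M0505 cells and 2.88, 2.82 and 3.06 in STOSE cells, under background in both lines and overlapping. The difference of 0.13 had a 95% interval of −0.06 to 0.32 (adjusted p = 0.224). *Kera* and *Epyc*, the further small leucine-rich proteoglycan genes of this cluster, were at 3.38 and 3.19 in M0505 cells and at 3.28 and 3.21 in STOSE cells. Of the 4 genes of the cluster, *Dcn* was thus the only one above background.

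Of the other 14 measured genes of this family, 2 were called higher and 2 lower, against 4.90% and 7.59% of all genes. *Prelp*, which links basement membrane to collagen, was called higher, from 5.34, 5.13 and 5.02 to 6.95, 7.504 and 7.43 (log2 fold change 2.13, standard error 0.15). *Fmod*, a fibril-binding member, was also called higher (1.45, standard error 0.12). *Podn* was called lower, with values of 7.41, 8.41 and 8.14 in M0505 cells and 5.50, 5.17 and 5.36 in STOSE cells. The *Podn* log2 fold change was −2.64 (standard error 0.23), and M0505 replicate 1 was the lowest of its line. *Ogn* was called lower (−1.25, standard error 0.09). Of the remaining genes, 10 were not called, and 6 of the 14 lay under background in both lines.

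Of 49 genes for enzymes that build, edit or cut the sugar chains, 37 were not called, 10 were called lower and 2 higher, against 7.59% and 4.90% of all genes. Without the heparanases and sulfatases, 9 of 45 were called lower and 2 higher. Among 15 chondroitin and dermatan sulfate enzymes, 5 were called lower and 1 higher. *Chst11*, a sulfotransferase that places sulfate on carbon 4 of chondroitin, had values of 10.18, 10.26 and 10.23 in M0505 cells and 6.60, 6.62 and 6.34 in STOSE cells. Its log2 fold change was −3.71 (standard error 0.08, adjusted p = 1.19e-08). *Chst12*, another sulfotransferase gene of this list, was not called and is named after its value was seen. Its means were 10.30 in M0505 cells and 10.27 in STOSE cells (log2 fold change −0.03, adjusted p = 0.848). *Dsel*, a dermatan sulfate epimerase-like gene, had a log2 fold change of −2.44 (standard error 0.09) and *Ust*, a uronyl sulfotransferase, one of −1.69 (standard error 0.06). *Chst15*, a further chondroitin sulfotransferase, reached background in STOSE cells and fell at least 3.58-fold. *Chpf2*, a chain-polymerizing factor, had a log2 fold change of −1.59. *Csgalnact1*, which starts the chondroitin chain, was the gene called higher (1.52, standard error 0.14). The list's median log2 fold change was −0.03, beside 0.08 for all genes.

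Among 24 heparan sulfate enzymes, 4 were called lower and 1 higher, against 7.59% and 4.90% of all genes. The list had a median log2 fold change of 0.07. *Extl1* (−1.90, standard error 0.12) and *Extl3* (−1.33, standard error 0.07) encode exostosin-like glycosyltransferases, and *Hs3st1* (−1.19, standard error 0.07) adds a rare sulfate needed for antithrombin binding, though after centring of each array it was −0.99. *Hpse*, the heparanase gene, had a log2 fold change of −1.38 (standard error 0.13), with 2 of 3 STOSE arrays at background. *Ndst3*, the gene called higher (1.07, standard error 0.21), lay at background on all M0505 arrays and on 2 of the STOSE arrays, and it was 0.79 without STOSE replicate 1. Of 10 enzymes of the linkage region and sugar donors, *Xylt1* was called lower (−1.81, standard error 0.06), and none was called higher. *Xylt1* is one of both genes for the xylosyltransferase that begins heparan, chondroitin and dermatan sulfate chains. Of 16 other proteoglycans and carriers, 3 were called higher and 0 lower: *Cd44*, the lubricin gene *Prg4* (2.41, standard error 0.16) and *Tgfbr3*, the part-time proteoglycan betaglycan (1.15, standard error 0.14, and 0.98 without M0505 replicate 1). *Prg4* rose from near background, with a mean of 4.75 in M0505 cells and 1 M0505 array at or below its percentile. Of the 3 other syndecan and syntenin genes, none was called.

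In all, 115 of 118 genes listed besides the members were measured, and of these 12 were called higher and 17 lower, where 4.90% and 7.59% of all genes were. After centring of each array on its median, 14 were called higher and 15 lower. Their median log2 fold change was 0.10, beside 0.08 for all genes.

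**Figure D5:**
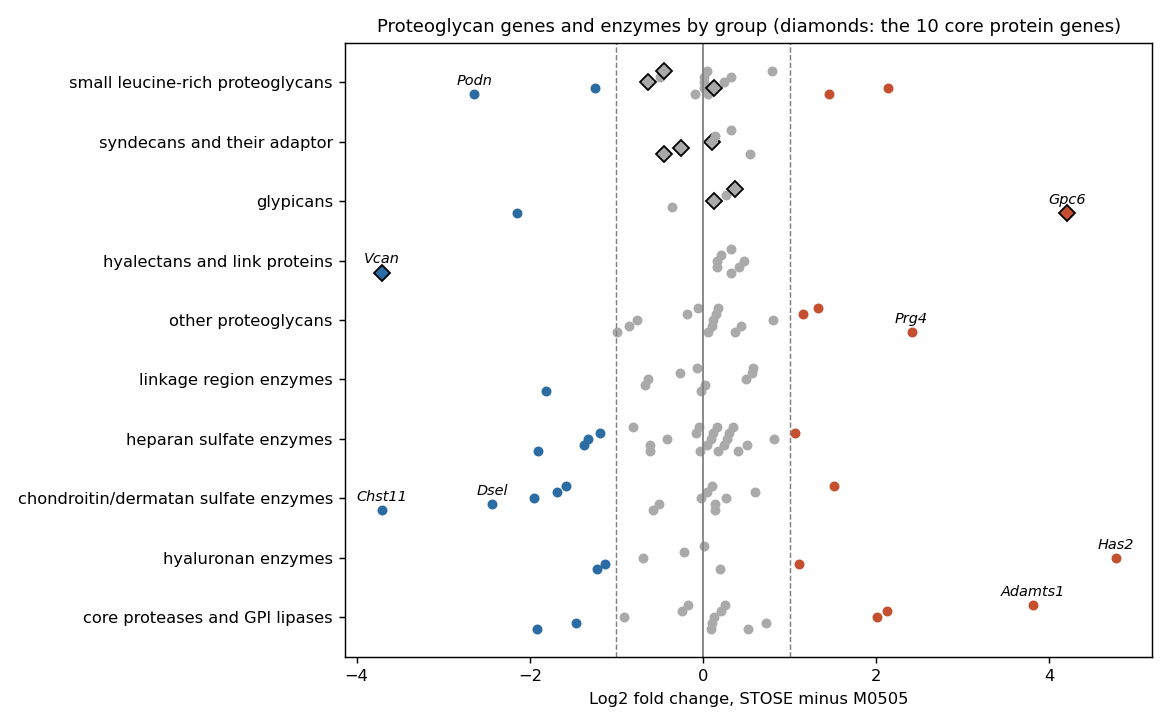
Log2 fold change of STOSE over M0505 cells (horizontal axis) of each measured gene in 10 groups of proteoglycan genes, with genes called higher in orange, called lower in blue and not called in grey, the 2-fold limits dashed, and the 10 core protein genes as diamonds. The points farthest out are *Has2*, *Gpc6*, *Adamts1*, *Chst11* and *Vcan*, and most points lie inside the limits. *Has2* and *Vcan* have no exact place since 1 line is at background, and *Gpc6* rises from just above background.

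Markers of mesenchymal cells were read beside these changes, since several members are also made by fibroblasts. Over all genes, 4.90% were called higher and 7.59% lower. Of 10 fibroblast and smooth muscle markers, 2 were called higher, *Acta2* (log2 fold change 2.33) and *Thy1* (1.49), and 2 lower, *Col1a2* (−2.45) and *Cnn1* (−1.32). *Col1a1*, the other type I collagen gene, was not called but was higher, at 0.95 (limma adjusted p = 6.50e-06). By the adjusted p alone, 5 of the 10 markers were higher and 3 lower, against 31.6% and 24.8% of all genes. The summed linear signal of the 10 markers ran from 2930 to 3052 on the M0505 arrays and from 5715 to 6548 on the STOSE arrays. *Myh11* was at 5.07 and 5.12, little above background. *Acta2* alone gave 532 to 750 on the M0505 arrays and 2554 to 3412 on the STOSE arrays. Without *Acta2* the sums were 2302 to 2465 and 3136 to 3192, and the list had a median log2 fold change of 0.18. The summed signal of the OSE markers ran from 29318 to 30999 in M0505 cells and from 17598 to 19272 in STOSE cells. Among 8 endothelial markers, 1 was called lower, *Kdr*, at 9.58 and 4.41, while *Pecam1* was under background, at 4.69 and 4.33. The sum ran from 946 to 1035 and from 239 to 264. Most of it in M0505 cells was *Kdr*, the next highest marker, *Cldn5*, being at 5.63 and 5.71. Of 7 granulosa and theca markers, 1 was called lower, *Inha*, at 9.61 and 5.68, and *Fshr* and *Cyp19a1* were under background in both lines. The sums were 910 to 1029 and 212 to 245. Most of the M0505 sum was *Inha*, the next highest marker, *Foxl2*, being at 6.76 and 6.39. The leukocyte sums were 165 to 169 and 177 to 196. The part of these markers' changes in those of *Vcan* and *Gpc6* was not tested.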

How the data were processed

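RNA of M0505 cells (3 arrays) and STOSE cells (3 arrays) was read on Mouse Gene 1.0 ST arrays of Affymetrix. The authors normalized them by RMA, which the submitters' processing notes place in Affymetrix Expression Console (version not given in the sources used here), and deposited 1 table of log2 values, 1 column per array. It also holds the authors' mean log2 value of each line and their linear fold change, deposited as a ratio and as a signed value; these comparisons were not used. All 6 columns matched a sample by name. Probe signals were not used here, so background correction was not varied.

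Of 28944 probe sets, 23530 carried a symbol and stood for 20405 genes; the probe set with the highest mean was kept per gene. limma 3.58.1 in R 4.3.3 (lmFit, eBayes, no covariate) compared the lines, with Benjamini-Hochberg adjustment over the 20405 genes. The code was tested on simulated data. Background was the 95th percentile of 1134 olfactory receptor probe sets, a bound on a fold being taken from the percentile of each array. Chromosomes, gene order and sequences are from RefSeq GRCm38.p6, which placed 97.5% of genes; the deposited table names no build. An array has no read depth, and the number of arrays limits the precision. The members and lists were chosen with earlier results of these data known. Genes named are the members, the called genes of the lists and most of the nearest genes on each side of a member. The brightest and the epithelial markers are named too. Other family genes and further markers were named after their values were seen. The alternatives were other scalings, filters, probe set rules, tests, fold limits, a replicate block and each array left out.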

Additional observations from a re-analysis of the deposited data

How the results depend on the processing

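The log2 fold changes of the 10 members kept their direction under every alternative that tested them, and the 9 pairs under the scalings, the probe set mean and each array left out, and *Vcan* and *Gpc6* kept their calls. Genes on the array carry an unequal median after RMA, and centring each array raised every log2 fold change by 0.20 and the median of all genes from 0.08 to 0.28. By the adjusted p alone, this turned 1 higher and 5 lower members into 5 higher (*Lum*, *Sdc2*, *Gpc1*, *Gpc3*, *Gpc6*) and 4 lower, *Sdc4* being lost. *Lum* and *Gpc3* were at background on every array, and the matching share of all genes is not given here. Without the fold limit, 11520 genes were called in place of 2548, of which 5066 were lower in place of 1548, the wider lists had 42 higher and 34 lower in place of 12 and 17, and 5 members were lower, with *Dcn* (−0.45), *Bgn* (−0.64), *Sdc1* (−0.45) and *Sdc4* (−0.25) past the threshold. At 4-fold, 695 genes were called, 509 of them lower, and 6 higher and 4 lower in the wider lists. limma's treat test against 2-fold called 1499 genes, 994 of them lower. The methods' t-test with the 2-fold limit called 2542 genes, and 2531 after Benjamini-Hochberg adjustment. Leaving out the dimmest 50% of genes left 7 genes of the wider lists higher, fewer genes being tested, and removed *Lum* and *Gpc3*.

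With each array left out in turn, 2483 to 2656 genes were called, 1508 to 1591 of them lower, and of the wider lists 11 to 12 higher and 17 to 18 lower. The members' log2 fold changes ran from −0.49 to −0.40 for *Dcn*, −0.70 to −0.59 for *Bgn*, 0.06 to 0.18 for *Lum*, −0.26 to −0.25 for *Sdc4*, 0.05 to 0.15 for *Sdc2*, 0.20 to 0.46 for *Gpc1* and 0.06 to 0.17 for *Gpc3*. The correlations of same-numbered deviations over genes were 0.26, 0.04 and 0.25, and those of unlike numbers ran from −0.29 to 0.12. Whether the replicate numbers pair the arrays is not settled by these values, and the labels name no pairing. With the replicate number as a block, 2549 genes were called and no call of a member changed, with an adjusted p of 0.106 for *Gpc1*. The cause of these movements was not tested.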
